A study of Mus musculus with 11 samples.

Results

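The miR-183/96/182 cluster is a group of 3 microRNA hairpins, Mir183, Mir96 and Mir182, that lie close together and are known to be made from a common primary transcript. It was examined here in small RNA libraries from mouse liver, as every mature arm named for these hairpins in the series: mmu-miR-183-5p, mmu-miR-183-3p, mmu-miR-96-5p, mmu-miR-96-3p, mmu-miR-182-5p and mmu-miR-182-3p, written below without the species prefix. They are 6 of 1281 mature names, of which 5 had at least 1 read and 3 had enough reads to be tested. The libraries came from livers of untreated telomerase-knockout mice of the generation that the labels call G4, with short telomeres, on a C57/B6 background. There were 5 libraries from mice with intact p53 (G4 p53+/+) and 6 from mice lacking p53 (G4 p53-/-). All groups therefore share the telomerase knockout. Age, sex and the kind of p53 allele were not among the labels. The series was designed to find microRNAs that depend on p53.

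MicroRNAs are short RNAs, cut from either arm (5p or 3p) of a hairpin, that bind messenger RNAs mainly through the seed, bases 2 to 8, and repress them. The miR-183/96/182 cluster is best known from sensory organs, where it is abundant in photoreceptors and in hair cells of the inner ear, and mutations in the seed of miR-96 cause hearing loss. In other tissues its arms are known to repress the transcription factor Foxo1, the cluster is reported as a target of sterol-responsive transcription, and it is often raised in epithelial tumours.

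The mature 5p arms are shown because nearly all reads of the cluster came from them and because their seeds are closely related; capitals mark the seed, 5′ to 3′, with RefSeq sequences on GRCm38.p6, in which all 6 arms were matched by name.
miR-183-5p: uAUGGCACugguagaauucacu
miR-96-5p: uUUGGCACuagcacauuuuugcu
miR-182-5p: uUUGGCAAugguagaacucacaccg
Counting positions from 1 at the 5′ end, the seeds of miR-182-5p and miR-96-5p differed by A8C alone, and those of miR-96-5p and miR-183-5p by U2A alone. The seeds of miR-182-5p and miR-183-5p differed at both places, U2A and A8C. Over the whole arm, seed included, miR-182-5p and miR-183-5p had the same base at 18 of 22 aligned positions, against 12 of 23 for miR-182-5p and miR-96-5p and 13 of 22 for miR-96-5p and miR-183-5p. Outside bases 2 to 8 the counts were 13 of 15, 6 of 16 and 7 of 15. The longest run that miR-182-5p and miR-183-5p shared was UGGUAGAA, 8 bases. The number of mismatches that the authors' counting allowed is not stated in the labels or files, so how far reads of miR-182-5p and miR-183-5p were counted for each other was not tested. Among 1679 mature names in the RefSeq table, miR-1271-5p was the 1 other arm with the 2-to-8 seed of miR-96-5p, and 0 others had that of miR-182-5p or miR-183-5p.

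The hairpins are shown to place the 2 arms of each, with the annotated mature arms in capitals (5p before 3p).
Mir183: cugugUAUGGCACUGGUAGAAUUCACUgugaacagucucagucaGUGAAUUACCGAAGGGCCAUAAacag
Mir96: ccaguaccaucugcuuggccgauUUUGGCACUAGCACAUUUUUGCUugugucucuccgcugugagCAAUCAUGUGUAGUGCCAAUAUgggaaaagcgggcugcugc
Mir182: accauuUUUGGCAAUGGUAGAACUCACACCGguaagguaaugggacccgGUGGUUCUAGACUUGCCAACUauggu
On the minus strand of GRCm38, in the order of transcription, Mir183 lies at chr6:30169668-30169737, Mir96 at chr6:30169446-30169551 and Mir182 at chr6:30165918-30165992. Between Mir183 and Mir96 there are 116 bases, and between Mir96 and Mir182 there are 3453, so that the cluster spans 3820 bases. GENCODE M21 annotates no other gene over any of the 3 hairpins. Its nearest neighbours are the long noncoding RNA gene Rncr4, which starts 3155 bases from the Mir183 end on the plus strand, and the protein-coding gene Nrf1 on the plus strand, whose annotated end lies 12459 bases from the Mir182 end.

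**Figure D1:**
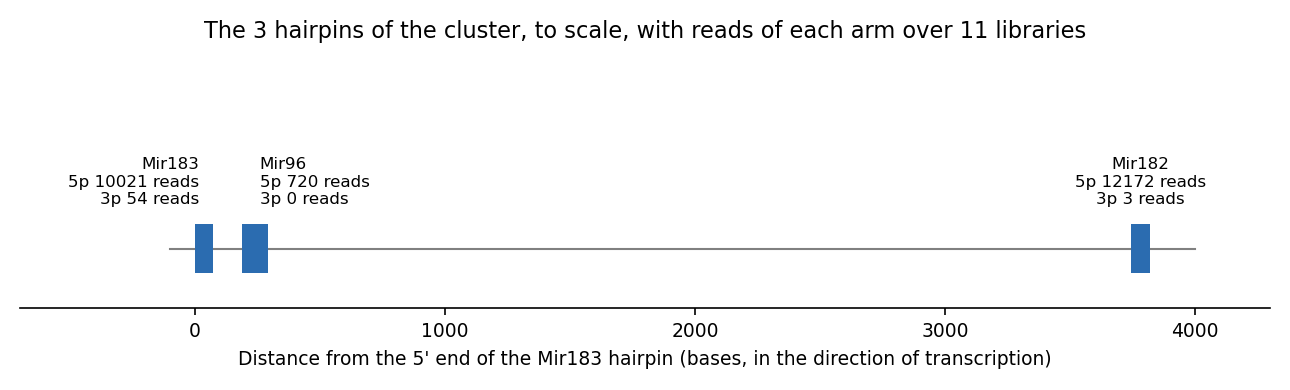
Map of the cluster to scale, with distance in bases from the 5′ end of the Mir183 hairpin on the horizontal axis and each hairpin as a filled box. Labels give the reads of each arm summed over 11 libraries: the 5p arms of Mir183 and Mir182 had 10021 and 12172 reads, that of Mir96 had 720, and the 3p arms had between 0 and 54.

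Total counts, with each mature name counted once, ran from 1905609 to 6448820 in p53+/+ libraries and from 2202415 to 6682492 in p53-/- libraries. Nothing in the labels ties libraries to separate animals, and the p-values here cover only the variation among these libraries, which may be technical. The Trp53 transcript is not measured in small RNA, so the genotypes were not checked on it. In bulk liver, fewer cells that make a microRNA and less of it per cell cannot be told apart. p53+/+ libraries 1 and 2 and p53-/- library 11 were the shallowest, at 1965468, 1905609 and 2202415 counts.

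The cluster was a minor part of the liver microRNAs, carried almost wholly by the 5p arms of its outer hairpins. miR-182-5p, with 12172 reads over all libraries, ranked 95 among the 811 microRNAs with reads. miR-183-5p, with 10021 reads, ranked 103, and miR-96-5p, with 720 reads, ranked 227. Of all reads of the cluster 43.6% were miR-183-5p and 3.13% miR-96-5p, and nearly all others were miR-182-5p. The whole cluster made up between 0.0249% of a library (95% exact binomial interval 0.0227 to 0.0272%, p53+/+ library 2) and 0.0738% (0.0715 to 0.0762%, p53-/- library 6). Such intervals cover counting error only, since the reads were not marked by molecule.

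The 3p arms, the passenger strands of these hairpins, were rare in every library. miR-183-3p had 1, 3, 5, 2 and 4 reads in p53+/+ libraries 1 to 5, and 11, 5, 7, 6, 2 and 8 in p53-/- libraries 6, 7, 8, 10, 11 and 12. The highest count was in library 6, the library with the most miR-183-5p. Over all libraries miR-183-3p made up 0.536% of the reads of its hairpin (95% exact binomial interval 0.403 to 0.699%), or 186 reads of the 5p arm for each read of the 3p arm. miR-182-3p had 3 reads in all, 1 in p53+/+ library 4 and 2 in p53-/- library 6, which is 0.0246% of its hairpin (0.00508 to 0.0720%). miR-96-3p had 0 reads in all 11 libraries, where 3 counts, the limit that a count of 0 allows, are 0.417% of the reads of its hairpin (95% exact binomial upper bound 0.511%) and a level of up to 0.0563 CPM (counts scaled to a fixed library total) over all libraries together. The interval of miR-182-3p lay wholly below that of miR-183-3p. The upper bound of miR-96-3p, 0.511%, lay within the interval of miR-183-3p and below its share of 0.536%. Whether Mir96 differs from Mir183 in arm use was not tested. None of the 3p arms passed the filter on low counts and none was tested; with no filter, edgeR put miR-183-3p at a log2 fold change of 0.69 (adjusted p = 0.579).

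The main comparison asked whether the cluster differs between short-telomere livers with and without p53. The 3 tested arms had higher mean levels without p53, by between 1.39-fold and 1.49-fold, but none passed the test, and for each arm the groups overlapped. p53-/- libraries 6 and 8 were the highest of their genotype for all 3 arms. Levels below are normalised CPM, counts scaled to a common library total after TMM adjustment, and a log2 fold change above 0 means a higher level without p53.

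miR-183-5p is the arm transcribed first, and is known to repress, among others, the cytoskeletal linker ezrin. It stood at 155, 95.2, 159, 172 and 163 CPM in p53+/+ libraries 1 to 5. In p53-/- libraries 6, 7, 8, 10, 11 and 12 it stood at 375, 125, 282, 228, 161 and 164 CPM. Libraries 6, 8 and 10 lay above every p53+/+ library, library 7 lay below 4 of them, and p53+/+ library 2 was the lowest of all. This order depended partly on the TMM adjustment. On library totals alone, libraries 11 and 12, at 200 and 176 CPM, also lay above the highest p53+/+ library (166 CPM, library 1). The means were 149 ± 30.7 CPM (SD, n = 5) and 222 ± 93.2 CPM (SD, n = 6). In edgeR's quasi-likelihood test over 388 microRNAs this was a log2 difference of 0.58 (95% interval -0.01 to 1.16, SE 0.27, adjusted p = 0.293). The means of log2 CPM differed by 0.51 (two-sided exact permutation p = 0.128, the smallest possible being 0.00216), and 5 of 6 p53-/- libraries were above the p53+/+ median.

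miR-96-5p, the arm in the middle of the cluster and the one whose seed is mutated in inherited deafness, was the least abundant of the 5p arms. It rested on 21, 26, 51, 45 and 80 reads in p53+/+ libraries 1 to 5, which gave 10.0, 11.7, 8.55, 7.57 and 19.0 CPM. In p53-/- libraries 6, 7, 8, 10, 11 and 12 it rested on 119, 64, 104, 79, 26 and 105 reads, or 27.3, 9.57, 19.2, 14.8, 9.49 and 14.6 CPM. Here p53+/+ library 5 reached nearly the level of p53-/- library 8, and libraries 7 and 11 fell among the p53+/+ libraries. The means were 11.4 ± 4.55 CPM (SD, n = 5) and 15.8 ± 6.70 CPM (SD, n = 6). The log2 difference in edgeR was 0.48 (95% interval -0.22 to 1.18, SE 0.33, adjusted p = 0.508). The exact permutation p was 0.214, and 4 of 6 p53-/- libraries were above the p53+/+ median.

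miR-182-5p, a repressor of Foxo1 that is also induced in activated lymphocytes, was the most abundant arm. It stood at 184, 106, 199, 179 and 282 CPM in p53+/+ libraries 1 to 5, and at 483, 115, 378, 209, 207 and 211 CPM in p53-/- libraries 6, 7, 8, 10, 11 and 12. After TMM adjustment, libraries 10, 11 and 12 were within 5 CPM of each other and between p53+/+ libraries 3 and 5. On library totals alone they were spread more widely, at 186, 257 and 227 CPM. Library 10 then lay below p53+/+ libraries 1 and 3 (196 and 205 CPM). Library 7 was lower than every p53+/+ library but library 2. The means were 190 ± 62.8 CPM (SD, n = 5) and 267 ± 136 CPM (SD, n = 6). In edgeR the log2 difference was 0.49 (95% interval -0.23 to 1.22, SE 0.34, adjusted p = 0.516). The exact permutation p was 0.327, and 5 of 6 p53-/- libraries were above the p53+/+ median. From the lowest to the highest library miR-182-5p varied 4.57-fold, miR-183-5p 3.93-fold and miR-96-5p 3.60-fold, each more than counting error gives. For miR-182-5p these were p53+/+ library 2 and p53-/- library 6. Their 95% exact binomial intervals before scaling were 108 to 140 CPM and 384 to 419 CPM. Before scaling, p53-/- library 7 was the lowest for miR-182-5p, at 116 CPM (108 to 124 CPM).

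**Figure D2:**
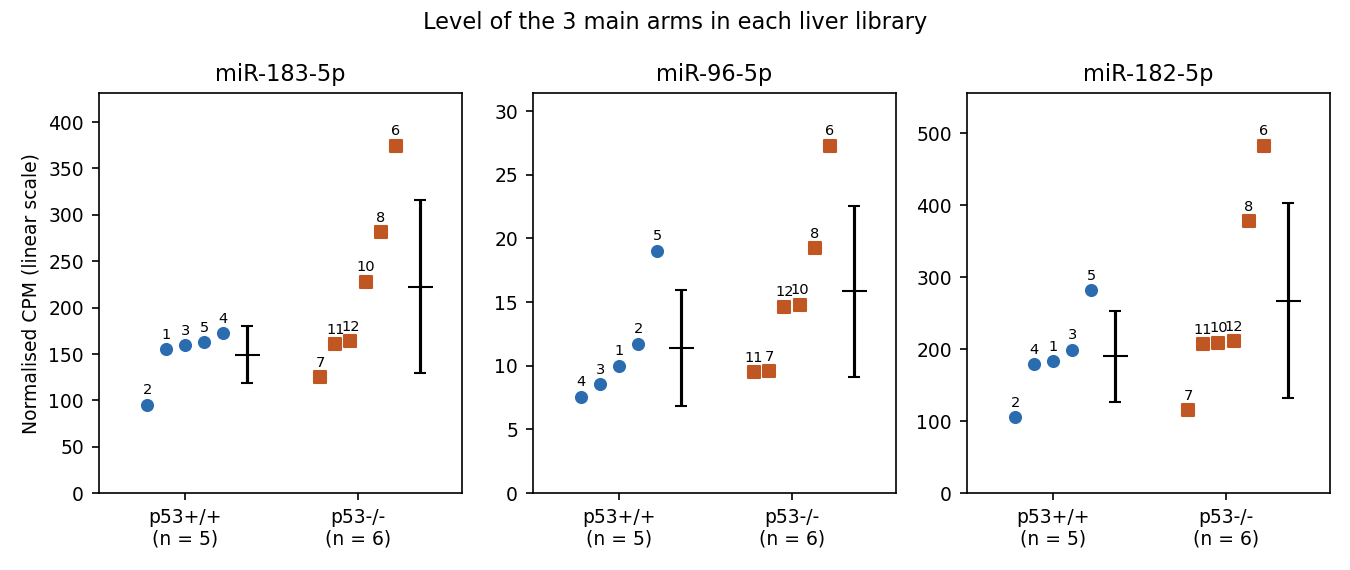
Normalised CPM (vertical, linear from 0) of the 3 tested arms in each library, with circles for p53+/+ and squares for p53-/-, numbered by library; bars show the mean ± SD. p53-/- libraries 6 and 8 were the highest of their genotype in each panel, and the other p53-/- libraries overlapped the p53+/+ range for miR-96-5p and miR-182-5p.

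Of the 388 microRNAs tested, 0.258% passed in either direction in edgeR, which was miR-34a-5p alone, and 0 of the 3 cluster arms did. Before adjustment, 8.25% of all microRNAs were past 0.05 and higher without p53 in edgeR and 9.02% past it and lower, with 0 of the 3 arms among them. The nearest was miR-183-5p, at an unadjusted p of 0.0536 in edgeR. That value fell below 0.05 in edgeR with library totals only (0.0488) and with no filter (0.0429). It also did so without p53-/- library 7 (0.0262) and without p53-/- library 11 (0.0379). Under each of the other alternatives it stayed above 0.05. DESeq2 called 17 of the 305 microRNAs to which it gave an adjusted p, and 0 of the 3 arms (adjusted p = 0.229 for miR-183-5p and 0.480 for the other two). Groups that did not overlap occurred for 2.32% of microRNAs and for 0 of the 3 arms. The median log2 fold change of the 3 arms was 0.49, against -0.01 over all microRNAs tested. Values above 0.4 were found for 20.4% of all microRNAs and for each of the 3 arms, which share a transcript and are not independent. The intervals above still allow a fold of 2.24 for miR-183-5p, 2.27 for miR-96-5p and 2.32 for miR-182-5p, or a fold as low as 0.993, 0.859 and 0.850, so the data do not show that the arms are alike in the 2 genotypes.

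The values depended on which p53-/- libraries were used. The descriptions number the samples with a code that starts with HA and is not explained. It lies below 500 for p53-/- libraries 6, 7 and 8 and above 500 for p53-/- libraries 10, 11 and 12 and for all 5 p53+/+ libraries. With libraries 10, 11 and 12 as the p53-/- group, the log2 fold change was 0.27 for miR-183-5p, 0.18 for miR-96-5p and 0.11 for miR-182-5p (adjusted p = 0.732, 0.878 and 0.938 in edgeR). Library 7, with an HA number below 500 like libraries 6 and 8, was at the opposite end of the range, at 115 CPM of miR-182-5p. Without library 6 alone the values were 0.36, 0.26 and 0.24.

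**Figure D3:**
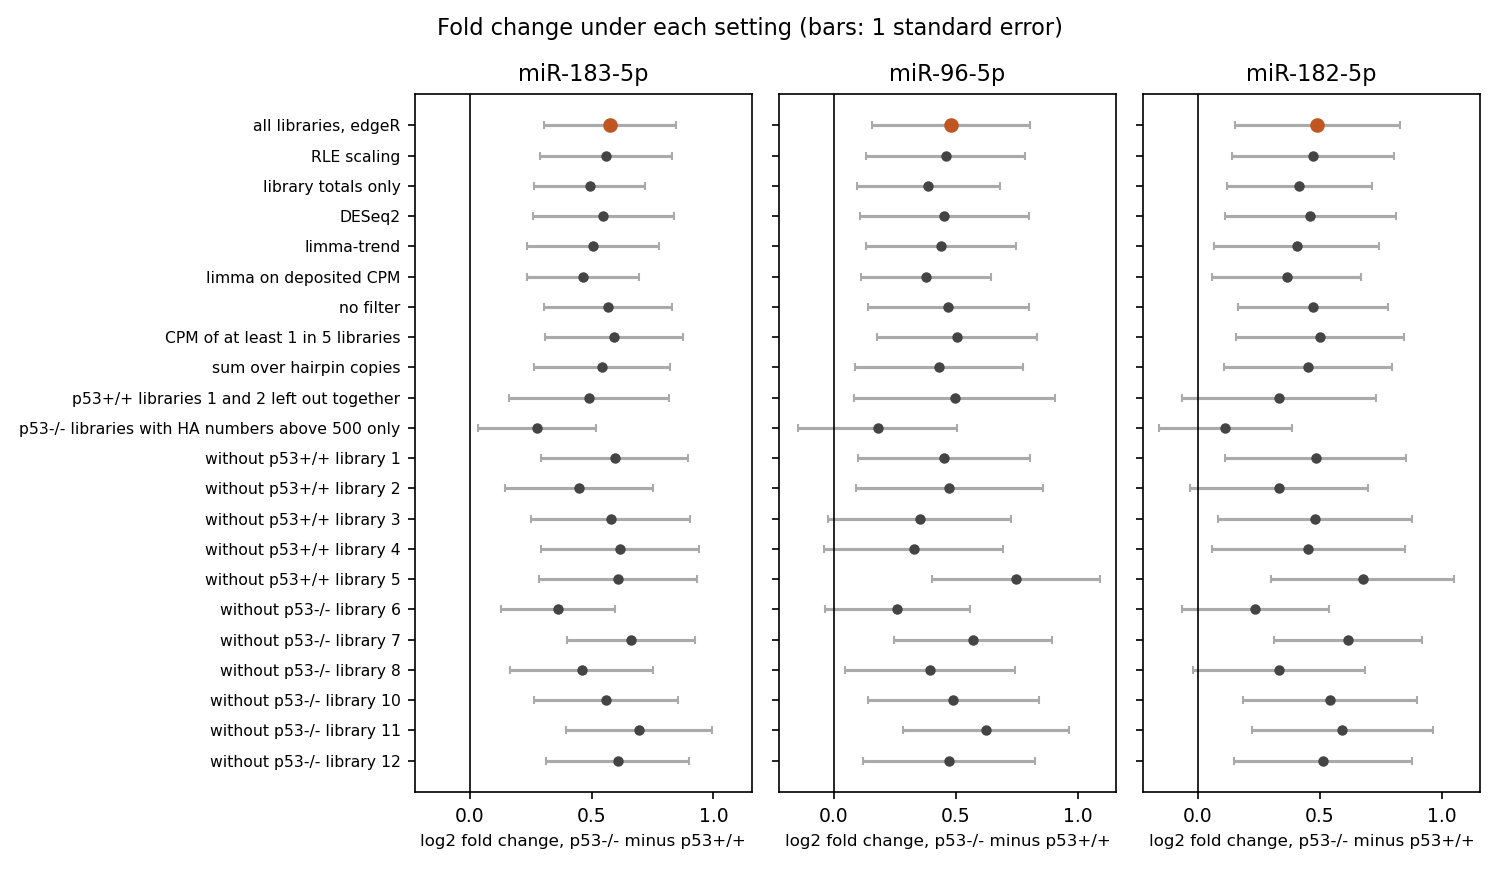
log2 fold change (horizontal, p53-/- minus p53+/+; bars are 1 standard error) of the 3 tested arms with all libraries (large point) and under each other setting named on the left. Every value lay above 0, and the lowest was 0.11 for miR-182-5p with p53-/- libraries 10, 11 and 12 only.

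Among the arms of the cluster, miR-182-5p and miR-183-5p varied together most closely between libraries, and miR-96-5p followed them in the p53-/- libraries more than in the p53+/+ libraries, a difference that was not tested. Across the 11 libraries, log2 CPM of miR-182-5p and miR-183-5p had a Pearson r of 0.92 (permutation p = 0.00021) and a Spearman rho of 0.81 (permutation p = 0.00403). Adjusted over the 3 pairs of arms, these p-values were 0.00063 and 0.0121 (Benjamini-Hochberg, permutation). Without p53-/- library 6 and p53+/+ library 2, the libraries farthest from the median, r was 0.79, and within the 6 p53-/- libraries it was 0.95 (exact permutation p = 0.00417). For miR-182-5p and miR-96-5p, r was 0.76 (permutation p = 0.00583, adjusted 0.00875) and rho 0.75 (permutation p = 0.00934, adjusted 0.0140), with r at 0.74 without the same libraries and 0.90 within the p53-/- libraries (exact permutation p = 0.0250). miR-183-5p and miR-96-5p had an r of 0.68 (permutation p = 0.0192, adjusted 0.0192) and a rho of 0.55 (permutation p = 0.0876, adjusted 0.0876). That relation rested on p53-/- libraries 6 and 8, since r was 0.19 without them. Within the p53-/- libraries it was 0.94 (exact permutation p = 0.00278), and 0.80 without libraries 6 and 7. Within the 5 p53+/+ libraries, too few for a test, r was 0.84 for miR-182-5p and miR-183-5p, 0.37 for miR-182-5p and miR-96-5p, and -0.16 for miR-183-5p and miR-96-5p. miR-96-5p rested on 21 to 80 reads in a p53+/+ library and on 26 to 119 in a p53-/- library. The part of counting error in its r was not tested. All arms of a library share its depth and its scaling, and the part of reads counted for both miR-182-5p and miR-183-5p in their r was not tested. The permutations over all 11 libraries ignored genotype, so their p-values also take in any shift between the genotypes.

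The balance between miR-183-5p and miR-182-5p, which does not depend on scaling, differed between libraries but not with the genotype beyond the spread; the part of reads counted for the wrong arm was not tested here either. miR-183-5p made up 45.9, 47.4, 44.4, 49.0 and 36.6% of the reads of these 2 arms in p53+/+ libraries 1 to 5. In p53-/- libraries 6, 7, 8, 10, 11 and 12 it made up 43.7, 52.1, 42.7, 52.2, 43.7 and 43.7%. miR-182-5p was thus the more abundant in 9 of 11 libraries, and miR-183-5p in p53-/- libraries 7 and 10. p53+/+ library 5, with the lowest share (95% exact binomial interval 34.4 to 38.9%), lay apart from library 10, with the highest (50.2 to 54.3%), by more than counting error. The log2 ratio of miR-183-5p to miR-182-5p was -0.31 ± 0.28 (SD, n = 5) in p53+/+ and -0.21 ± 0.26 (SD, n = 6) in p53-/- livers, a difference of 0.10 (two-sided exact permutation p = 0.569). Without p53+/+ library 5 the difference was -0.0195. The ratio of miR-182-5p to miR-96-5p reads ran from 9.0 in p53+/+ library 2 to 23.7 in p53+/+ library 4, with every p53-/- library between them.

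**Figure D4:**
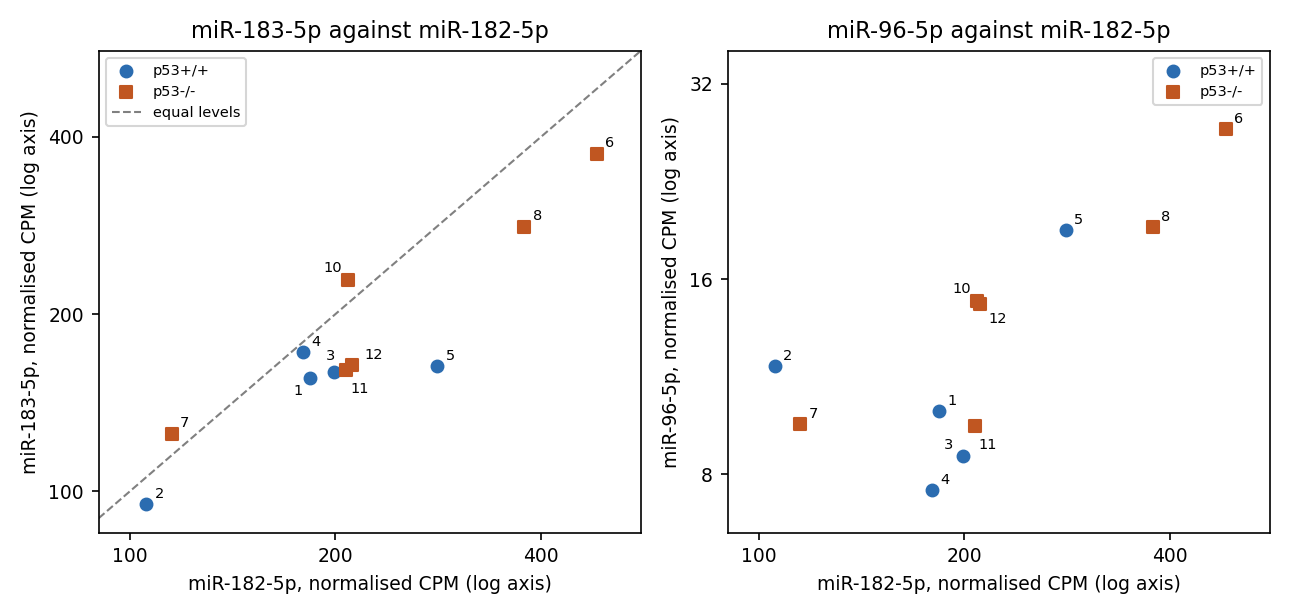
Normalised CPM of miR-183-5p (left) and miR-96-5p (right) against miR-182-5p, on log axes, for 5 p53+/+ (circles) and 6 p53-/- (squares) libraries numbered as in the labels; the dashed line marks equal levels. In the left panel 9 libraries lie below the line, and p53-/- libraries 7 and 10 lie above it.

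No microRNA of the lists linked to the known functions of the cluster passed the test in edgeR or in DESeq2. Of 8 microRNAs reported to repress Foxo1 beside the cluster, 7 were tested, 3 had values above 0 and 4 below, 0 passed, and the median log2 fold change was -0.23. The smallest p among them was that of miR-139-5p, at 1250 ± 153 CPM (SD, n = 5) against 1727 ± 228 CPM (SD, n = 6), with 0.47 as its log2 fold change (adjusted p = 0.174 in edgeR). Of 9 microRNAs reported to act on sterol metabolism or the LDL receptor, 5 were tested, 4 had values above 0 and 1 below, 0 passed, and the median was 0.16. Of 6 microRNAs of sensory organs and neurons, miR-124-3p, the main microRNA of neurons, had 0 reads, and the 2 tested, miR-9-5p and miR-137-3p, had means of at most 3.49 CPM and values of -0.65 and -0.34, neither of which passed.

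Markers of the cells that could carry the cluster were read beside it. As background for every list, 198 of all 388 microRNAs tested in edgeR had values below 0 and 190 above. DESeq2 called 17 of 305. All 8 epithelial and biliary microRNAs had values below 0 (median -0.56, 0 called by edgeR and 1, miR-429-3p, by DESeq2), the direction opposite to the cluster arms. Their summed level was 2019 to 4440 CPM in p53+/+ and 1580 to 3104 CPM in p53-/- libraries. In p53-/- libraries 6 and 8, where the cluster was highest, that sum was 2072 and 1780 CPM, and p53+/+ library 3, with the highest sum, had 199 CPM of miR-182-5p. The part of epithelial cells in the cluster levels was not tested. Of 6 pancreas and neuroendocrine microRNAs 4 were tested, all below 0 (median -1.24, 0 passed in edgeR). DESeq2 called miR-217-5p and also miR-216b-5p, which the edgeR filter had dropped. By mean level miR-7a-5p led the tested ones, at 894 CPM in p53+/+ and 820 CPM in p53-/- livers. Beside it, miR-375-3p stood at 59.3 and 12.9 CPM and miR-217-5p at 40.7 and 1.78 CPM. For both, the p53+/+ mean was smaller than the spread between p53+/+ libraries. That SD was 69.8 CPM for miR-375-3p and 69.4 CPM for miR-217-5p. Among p53-/- libraries the SD was only 6.88 CPM for the former and 1.06 CPM for the latter. The p53+/+ means of these microRNAs therefore do not describe a level shared by all p53+/+ libraries. Sums over the list were 507 to 1915 CPM in p53+/+ and 775 to 960 CPM in p53-/- libraries. The highest of these sums, 1915 CPM, was in p53+/+ library 5, the p53+/+ library with the most miR-182-5p and miR-96-5p; its part in those values was not tested, and without it the log2 fold changes were 0.68 and 0.75.

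Leukocyte microRNAs matched 3 of 5 names as first written, with 2 values above 0 and 1 below (median 0.20, 0 passed in edgeR, while DESeq2 called miR-150-5p). With the arms of miR-142 spelled as in the count table, a change made after the data were seen, all 5 were tested, 4 above 0 and 1 below (median 0.18, 0 passed in edgeR), with sums of 103 to 161 CPM in p53+/+ and 142 to 216 CPM in p53-/- libraries. The highest, 216 CPM, was in p53-/- library 8, and the next, 190 CPM, in library 7, where miR-182-5p and miR-183-5p were lowest among p53-/- libraries. The part of leukocytes in the cluster levels was not tested.

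Erythroid microRNAs matched 3 of 5 names as first written, with 1 value above 0 and 2 below (median -0.21, 0 passed in either tool). The missing names were those of miR-486-5p, the most abundant of the list. Under that name it stood at 643 CPM on average in p53+/+ and 831 CPM in p53-/- livers (log2 fold change 0.37, adjusted p = 0.549 in edgeR). A separate entry, miR-3107-5p, had nearly the same values (log2 fold change 0.37, adjusted p = 0.549 in edgeR) and was not added to the list. With miR-486-5p included, also after the data were seen, the median turned to 0.08, with 2 of 4 values above 0 and sums of 528 to 1399 CPM and 591 to 1336 CPM. The hepatocyte markers, led by miR-122-5p, were the defining microRNAs of the labelled tissue and were present in every library, with 2 of 4 values above 0 (median 0.01, 0 passed in either tool) and sums of 488141 to 673925 CPM and 468813 to 811813 CPM. The highest hepatocyte sum was that of p53-/- library 6, which also had the highest level of each tested arm of the cluster; the part of tissue makeup in that level was not tested.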

How the data were processed

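Small RNA was measured in 11 mouse liver libraries; per the labels' protocols, total RNA came from 50 mg of tissue by Trizol and column purification. The authors deposited raw read counts per mature miRNA and hairpin, and CPM, which are the counts divided by each library's total over all listed entries. Per the submitters' processing notes the build was GRCm38 and limma was used; the aligner and counter were not named there. Each mature name was counted once, with its highest count over hairpins; every cluster arm has 1 hairpin. Genotypes were compared with edgeR 4.0.16 in R 4.3.3 (TMM, filterByExpr, quasi-likelihood F-test, Benjamini-Hochberg over 388 miRNAs holding 99.98% of counts, threshold 0.05), tested on simulated data. SEs are the fold change over the root of F. Log2 CPM used a prior count of 2, and the arm ratio 0.5 added to each count. Correlations used 100000 permutations, or all for 6 libraries. Alternatives were DESeq2 1.42.0, limma 3.58.1, other scalings, filters, hairpin sums and left-out libraries. The named miRNAs are every arm, those most alike to miR-182-5p and miR-183-5p, and up to 4 per list by smallest p; members and lists were chosen with earlier results of these data known.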

Additional observations from a re-analysis of the deposited data

Results flagged for a closer look

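miR-183-5p in p53+/+ library 2 stood far below the other p53+/+ libraries, at 6.58 on the log2 CPM scale, where the others lay close together. The value rests on 211 reads in the shallowest library (95% exact binomial interval before scaling 96.3 to 127 CPM). Over 5 quantities in 2 genotypes, 10 groups of libraries were checked and 1 such gap was found; chance gives about 1 in 20 groups. Without that library the log2 fold change of miR-183-5p was 0.45 (adjusted p = 0.514 in edgeR).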

How the results depend on the processing

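The 3 tested arms kept a value above 0 and an adjusted p above 0.05 under each of 21 alternatives. The log2 fold changes ran from 0.27 to 0.70 for miR-183-5p (adjusted p 0.229 to 0.732), from 0.18 to 0.75 for miR-96-5p (0.292 to 0.878) and from 0.11 to 0.68 for miR-182-5p (0.371 to 0.938). With a library left out they ran from 0.36 to 0.70, 0.26 to 0.75 and 0.24 to 0.68, in each case lowest without p53-/- library 6. The difference in the log2 ratio of miR-183-5p to miR-182-5p did not pass under any of 15 alternatives. With libraries left out in turn it lay between -0.0195, where it turned sign (p53+/+ library 5 left out), and 0.16 (p53+/+ library 4 left out); the cause was not tested. DESeq2 called 17 miRNAs, 8 higher and 9 lower, where edgeR called 1, and none was a cluster arm. Under the other 20 alternatives the count was 1, with each library left out in turn between 1 and 1. With marker names spelled as in the count table, chosen after seeing the data, the erythroid median moved from -0.21 to 0.08 and the leukocyte median from 0.20 to 0.18. No paired analysis was possible because the genotypes share no replicate numbers. Depth limits the 3p arms and miR-96-5p, which had as few as 21 reads in a library.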

Other observations

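Outside the cluster, the microRNAs whose log2 CPM followed miR-182-5p most closely over the 11 libraries were miR-320-3p (r = 0.79), miR-20b-5p (0.76), miR-10a-5p (0.75), miR-27a-5p (0.75) and miR-101a-3p (0.69). For miR-183-5p they were miR-122-5p (0.78), miR-27a-5p (0.77), miR-101c (0.74), miR-181a-1-3p (0.74) and miR-101a-3p (0.72). Each was picked as the highest of 385 microRNAs, so the values are a description with no test. miR-183-5p was the closest of all to miR-182-5p, at 0.92, and miR-96-5p ranked 3 of 387 for miR-182-5p and 10 of 387 for miR-183-5p. miR-27a-5p and miR-101a-3p stood on both lists. miR-320-3p, which is made without the hairpin-cutting enzyme Drosha, had means of 775 and 1093 CPM in p53+/+ and p53-/- livers and a log2 fold change of 0.50 (adjusted p = 0.287 in edgeR), while miR-10a-5p was at -0.01 (adjusted p = 0.987 in edgeR).

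The arms of the cluster varied more within a genotype than most microRNAs of like level. The within-genotype SD of log2 CPM was 0.64 for miR-182-5p, above that of 31 of the 38 microRNAs within 1 log2 unit of its level (median 0.31). It was 0.49 for miR-183-5p, above 30 of 44 (median 0.32), and 0.54 for miR-96-5p, above 57 of 94 (median 0.44). The order was not tested, since the arms share libraries and a transcript.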
